A study of Homo sapiens with 16 samples.

Results

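Close bin pairs are pairs of 20 kb stretches (bins) of the same autosome whose starts lie 20 to 200 kb apart. They were taken as all pairs 1 to 10 steps apart, a step being 20 kb, among the bins present in all 8 contact maps of the second sequencing run; beyond that presence, no contact value entered the rule. The rule gave 1271719 pairs out of the 476596156 pairs that these bins can form within autosomes, or 0.267% of them. The bins numbered 129998, which was 90.2% of the autosomal bins of build hg19. Although so few, these pairs held 39.8% to 42.3% of the autosomal contacts between different bins of the same chromosome in every library.

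The maps came from Hi-C carried out in nuclei of K562, an established human leukaemia line. Cells were fixed with formaldehyde and their chromatin was cut with the restriction enzyme HindIII for 0.25, 1, 3 or 12 h, with 2 replicate libraries at each time. All 8 libraries shared the cell line, the fixation and the enzyme, and differed in digestion time alone as far as the labels tell. The labels do not say whether replicates came from separate cultures, so each p-value measures the spread between these libraries, which may be technical.

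Hi-C ligates cut DNA ends that are held close together in the fixed nucleus, and the number of joined reads that link 2 stretches stands for how often they meet. Contact frequency falls steeply with distance along the chromosome, because chromatin is a flexible fibre whose neighbouring stretches meet most often. At the distances treated here, loops and insulated domains lie on top of this fall: stretches within a domain meet more often than stretches at the same distance on either side of its border. Distances here run from start to start of the bins, so contacts between neighbouring bins, 1 step apart, take in spans from nearly 0 to 40 kb.

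The libraries held 62777251 to 176412222 contacts, of which 39967950 to 130036113 joined different bins of the same autosome. The latter number rose with digestion time (Spearman's rho 0.78, exact two-sided permutation p = 0.0349, n = 8), and results on libraries thinned to the smallest total are given where they differ. Contacts inside a single bin fell from 22.6% and 26.9% of all contacts within autosomes at 0.25 h to 13.3% and 13.1% at 12 h (rho -0.98, exact permutation p = 0.000794, n = 8, the smallest p that 2520 arrangements can give). Contact frequency was therefore counted per possible bin pair and per 1000000 autosomal contacts between different bins of the same chromosome, and its unit is called normalised contacts per pair. If contacts inside bins are added to the scale, the change from 0.25 to 12 h shifts up by 0.21 on the log2 scale (median over the 100 distances up to 2 Mb), so directions at single distances hold relative to the chosen scale. Ratios between distances do not depend on it.

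A pair of neighbouring bins held a median of 36 to 119 contacts per library, and 0.0485% to 0.703% of such pairs held none. A pair 200 kb apart held a median of 3 to 12 contacts, and 1.47% to 13.6% of such pairs held none, the largest share in 0.25 h replicate 2, the shallowest library. Values below are therefore summed over all pairs of a distance, a chromosome or a window.

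Pairs of neighbouring bins were contacted less often after the longest digestion, while pairs 60 to 200 kb apart were contacted more often. At 20 kb, contact frequency was 1.35 and 1.31 normalised contacts per pair in replicates 1 and 2 at 0.25 h. It was 1.35 and 1.31 at 1 h, 1.35 and 1.29 at 3 h, and at 12 h 1.17 and 1.14. Both 12 h libraries lay below all 6 others, and the libraries of the 3 shorter times overlapped. The mean was 1.33 ± 0.0269 (SD, n = 2) at 0.25 h and 1.16 ± 0.0247 at 12 h, a log2 ratio of -0.20 in both replicates. Of this, -0.01 arose between 0.25 and 3 h and -0.19 between 3 and 12 h. By rank, the trend with digestion time did not pass the threshold over all libraries (rho -0.73, exact permutation p = 0.0548, adjusted p = 0.0608 over the 10 distances by Benjamini-Hochberg). It passed by Pearson's r, -0.78 (adjusted exact permutation p = 0.0238). With the replicate number as a block, times being permuted within replicate numbers, it passed by rank (rho -0.88, adjusted exact permutation p = 0.0193). It also passed without 0.25 h replicate 2 (0.0476), 1 h replicate 1 (0.0423) or 3 h replicate 1 (0.0159), as adjusted exact permutation p. With contacts inside bins added to the scale, the log2 ratio at 20 kb was -0.04 in replicate 1 and 0.05 in replicate 2, so lower values there hold only relative to contacts between different bins.

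Pairs 40 kb apart sat at the turn between both behaviours. Their frequency was 0.488 and 0.475 normalised contacts per pair at 0.25 h, 0.494 and 0.484 at 1 h, 0.499 and 0.486 at 3 h, and at 12 h 0.496 and 0.485. The libraries of all 4 times overlapped, and replicate 2 lay below replicate 1 at each time. The log2 ratio of 12 h over 0.25 h was 0.03 in both replicates, reached already at 3 h, and the trend did not pass (rho 0.39, adjusted exact permutation p = 0.361; 0.059 with the replicate block). Scaled to contacts 2 or more steps apart, the trend at 40 kb turned to -0.10, and it passed with contacts inside bins in the scale (rho 0.93, adjusted exact permutation p = 0.00353).

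From 60 to 200 kb, every distance rose with digestion. At 60 kb the frequency was 0.313 and 0.308 normalised contacts per pair at 0.25 h, 0.318 and 0.313 at 1 h, 0.321 and 0.315 at 3 h, and at 12 h 0.326 and 0.320. The lower of the 12 h libraries lay above both 0.25 h libraries but below 3 h replicate 1. At 100 kb the values were 0.196 and 0.194 at 0.25 h, 0.199 and 0.197 at 1 h, 0.201 and 0.199 at 3 h, and at 12 h 0.207 and 0.205. At 200 kb they were 0.112 and 0.111 at 0.25 h, 0.114 and 0.113 at 1 h, 0.115 and 0.114 at 3 h, and 0.12 at 12 h in both. At 100 and 200 kb the 12 h libraries were above all others, and at 200 kb the 4 times followed each other with no overlap.

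In all, 8 of the 10 distances, 60 to 200 kb, rose with digestion time by rank past an adjusted exact permutation p of 0.05, and none fell past it. The fall at 20 kb passed by Pearson's r and with the replicate block, as given above. Rises were not particular to close pairs. At every distance from 220 to 800 kb rho was 0.88 to 0.98, with an unadjusted exact permutation p of at most 0.0103. At 1000 kb rho was 0.59 (unadjusted exact permutation p = 0.153). The rise grew with distance within the range: the log2 ratio of 12 h over 0.25 h was 0.06 at 60 kb, 0.07 at 80 kb, 0.08 at 100 kb, 0.09 at 120 and 140 kb, 0.10 at 160 and 180 kb and 0.11 at 200 kb. Adjusted exact permutation p was 0.0248 at 60 kb, 0.00454 at 80 and 100 kb, and 0.00159, the smallest that could be reached, from 120 to 200 kb. At 60 kb the call was lost without 0.25 h replicate 2 (adjusted exact permutation p = 0.06) or 12 h replicate 1 (0.0675). Scaled to contacts 2 or more steps apart, 5 distances, 120 to 200 kb, still rose past the threshold. Replicate 2 was lower than replicate 1 at every time and distance, with log2 ratios between -0.06 and -0.04 at 20 kb and between -0.01 and 0.00 at 200 kb.

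**Figure D1:**
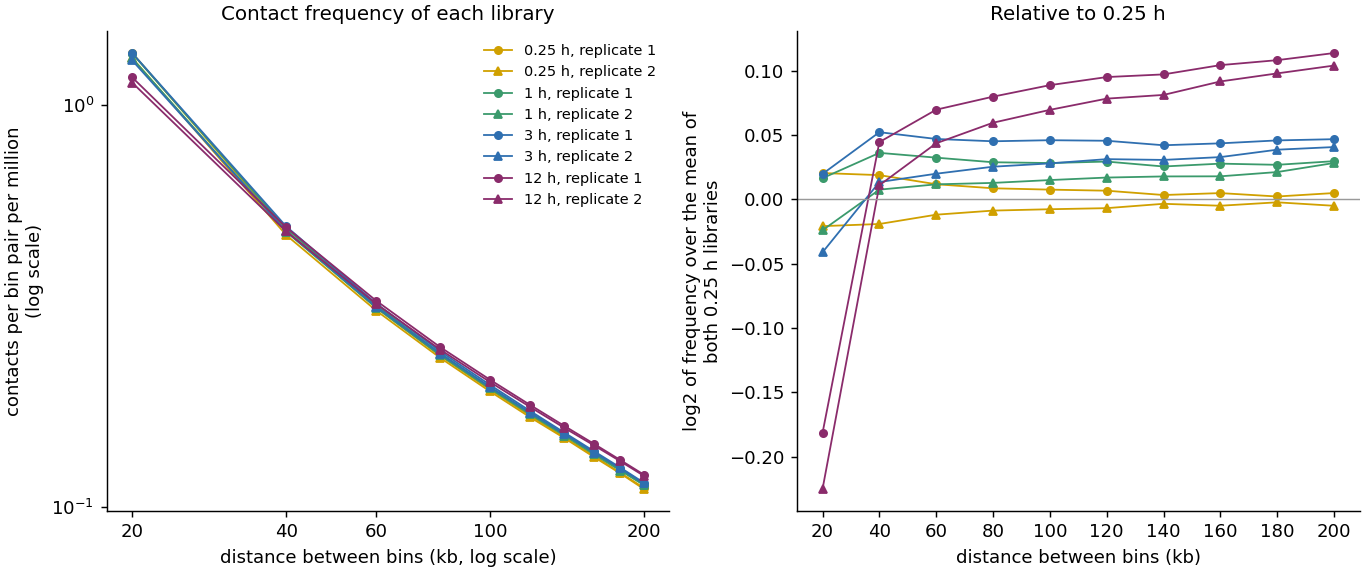
Contact frequency of close bin pairs against the distance between bins in kb. The left panel gives normalised contacts per pair for each of the 8 libraries on log axes, and the right panel gives log2 of each library over the mean of both 0.25 h libraries; colours are digestion times, circles replicate 1 and triangles replicate 2. The 12 h libraries lie lowest at 20 kb, with a mean log2 ratio of -0.20, and highest at 200 kb, with 0.11.

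The shape of the decay within the range changed with digestion in a way that no scaling of a library can alter. Neighbouring bins were contacted 2.77 and 2.76 times as often as bins 40 kb apart at 0.25 h. At 1 h the ratio was 2.73 and 2.70, at 3 h it was 2.70 and 2.66, and at 12 h it was 2.36 and 2.35. In both replicates the ratio dropped at each longer time, and both 12 h libraries lay far below the others. The trend was the strongest that 8 libraries allow (rho -0.98, exact permutation p = 0.000794, adjusted p = 0.00714 over the 9 ratios of neighbouring distances). The step from 40 to 60 kb, 1.55 ± 0.0109 (SD, n = 2) at 0.25 h and 1.52 ± 0.00553 at 12 h, did not pass (adjusted exact permutation p = 0.197). Nor did any of the 7 ratios at longer distances, whose adjusted exact permutation p ran from 0.0986 to 0.761. With the replicate block, 3 of these 7 passed (80 over 100 kb and 160 over 180 kb at adjusted exact permutation p = 0.0104, and 100 over 120 kb at 0.0469), all with a smaller ratio at 12 h.

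A single line through the 10 distances on log10 axes became flatter. Its slope was -1.04 and -1.03 at 0.25 h, -1.03 and -1.02 at 1 h, -1.03 and -1.01 at 3 h, and at 12 h -0.962 and -0.952. The 12 h libraries stood apart and the shorter times overlapped. The trend passed (rho 0.78, Pearson's r 0.85, exact permutation p = 0.0349 and 0.00635, n = 8). Blocking on the replicate number raised rho to 0.98 (exact permutation p = 0.00347, the smallest that 576 arrangements can give). Its rho no longer passed without 0.25 h replicate 1 (exact permutation p = 0.0794), 3 h replicate 2 (0.0825) or either 12 h library (0.108 each). Pearson's r was 0.91 when both 0.25 h libraries were left out and 0.62 when both 12 h libraries were.

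Neighbouring bins accounted for 41.4% and 41.1% of close contacts at 0.25 h, 41.0% and 40.6% at 1 h, 40.8% and 40.1% at 3 h, and at 12 h 36.9% and 36.6%. This share fell with time (rho -0.93, exact permutation p = 0.00317, n = 8). With lower values at 20 kb and higher ones beyond, the close range as a whole showed no trend that passed. Close pairs held 41.7% and 40.8% of autosomal contacts between different bins at 0.25 h, 42.0% and 41.2% at 1 h, 42.3% and 41.2% at 3 h, and at 12 h 40.6% and 39.8%. Both 12 h libraries lay below the other 6, those of the 3 shorter times overlapped, and the trend did not pass (rho -0.44, Pearson's r -0.46, exact permutation p = 0.3 and 0.252, n = 8). Pearson's r was -0.72 when both 0.25 h libraries were left out and 0.41 when both 12 h libraries were, so its sign rests on the latter. An alternative chosen after seeing the data left neighbouring bins out of the close contacts but kept them in the total. The share was then 24.4% and 24.1% at 0.25 h, 24.8% and 24.5% at 1 h, 25.1% and 24.7% at 3 h, and at 12 h 25.6% and 25.2%. Both 12 h libraries were above all others, and the share rose with time (rho 0.93, exact permutation p = 0.00317). Since the total includes neighbouring bins, their lower contact at 12 h adds to this rise, and how much of it they make was not tested. No library share with them out of both is given here. In windows of 200 kb, described below, contacts at 40 to 200 kb over longer ones leave them out of both. The median log2 change was 0.03 from 0.25 to 1 h, 0.01 from 1 to 3 h and -0.001 from 3 to 12 h. The higher share at 12 h than at 3 h is thus given only for a total that holds neighbouring bins. The share of all close pairs also rose when contacts inside bins were added to the scale (rho 0.93, exact permutation p = 0.00317).

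Followed out to 2 Mb, the ratio of 12 h over 0.25 h was above 1 over a middle range, whose ends depended on the scale. Crossings are given as the first change of sign along the distances, placed on a straight line between the 2 distances on either side. The ratio of contact frequencies crossed from below to above 1 at 37.6 ± 0.222 kb (SD, n = 2), between neighbouring bins and those 40 kb apart. Its place between them depends on the bin size as well, and the SD does not cover this. It peaked at 340 kb in replicate 1 and 460 kb in replicate 2, beyond the close range, at a log2 ratio of 0.12 in both. It first fell back below 1 at 1567 ± 14.6 kb, and replicate 2 returned above 1 at 1580, 1640 and 1660 kb. The position of the peak does not depend on the scale, and its height does. The lower crossing moved to 47.1 kb when libraries were scaled to contacts 2 or more steps apart, and with contacts inside bins in the scale replicate 1 still crossed between 20 and 40 kb while replicate 2 was above 1 at both. The upper crossing lay between 1234 and 1593 kb under the other settings that gave one, and neither replicate had one within 2 Mb with contacts inside bins or all contacts in the scale.

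Crossings were also read in each step of digestion, where the ratio returned above 1 at some distances beyond the first fall. From 0.25 to 1 h, the ratio rose above 1 at 23.7 and 22.1 kb in replicates 1 and 2 and first fell below it at 953 and 1148 kb. From 1 to 3 h, it first fell below 1 at 700 and 627 kb, in each replicate at a single distance with the next above 1 again, and only replicate 2 had a lower crossing, at 34.9 kb. From 3 to 12 h, it rose above 1 at 45.1 and 41.9 kb and first fell below it at 1893 and 1916 kb, with peaks at 700 and 440 kb. At 40 kb, the log2 ratio was thus 0.03 from 0.25 to 3 h and -0.01 from 3 to 12 h. At 200 kb it was 0.04 and 0.07. These are values of 2 replicates with no test.

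**Figure D2:**
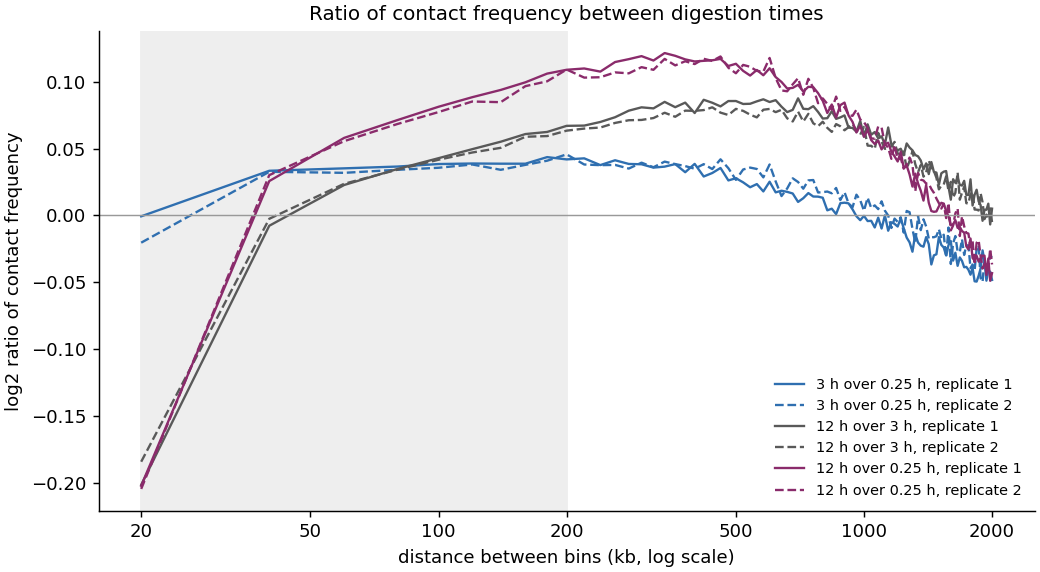
Log2 ratio of contact frequency between digestion times against the distance between bins in kb on a log axis, out to 2 Mb. Solid lines are replicate 1, broken lines replicate 2, and the shaded band is the close range of 20 to 200 kb. The ratio of 12 h over 0.25 h crosses 0 between 20 and 40 kb, at 37.6 kb on a straight line between them. The close range ends below its peak of 0.12.

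The first sequencing run of the series, deposited in 50 kb bins, gave a similar order over fewer distances. The labels do not say whether both runs read the same libraries, so its values are no independent evidence. The log2 ratio of 12 h over 0.25 h was -0.08 and -0.07 in replicates 1 and 2 for neighbouring bins, 50 kb apart, 0.06 and 0.05 at 100 kb, 0.07 and 0.07 at 150 kb, and 0.08 and 0.09 at 200 kb. With digestion time, rho was -0.44 at 50 kb (exact permutation p = 0.3), 0.83 at 100 kb (0.0198) and 0.98 at 150 and 200 kb (0.000794 each), n = 8. The change of sign thus lay between 50 and 100 kb in these bins, where the 20 kb bins placed it at 37.6 kb. The bins differ in size, so levels of both runs cannot be set side by side.

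Every autosome showed the same split between neighbouring bins and longer distances. Frequencies were scaled within each chromosome and fitted with limma across all 2200 combinations of 22 chromosomes and 100 distances. From 0.25 to 12 h, contacts at 20 kb fell on 22 of 22 chromosomes past an adjusted p of 0.05, by 0.19 to 0.28 on the log2 scale. Over all combinations 3.68% were lower and 53.2% higher by the same rule, and over those beyond 200 kb 2.98% and 50.5%. At 40 kb 0 of 22 chromosomes passed in limma, 0 also at an unadjusted p under 0.05, with log2 changes of 0.01 to 0.04. With the replicate block, 10 of 22 rose at 40 kb in limma and 21 of 22 at 60 kb, with no share beyond 200 kb counted for that fit. Without the block, at 60 kb 17 of 22 chromosomes rose, and chromosomes 2, 4, 5, 6 and 22 did not pass. At each of the 7 distances from 80 to 200 kb, 22 of 22 rose, with median log2 changes of 0.07 at 80 kb and 0.11 at 200 kb. Over the 198 combinations from 40 to 200 kb, 171 rose (86.4%) and none fell, while 174 had an unadjusted limma p under 0.05. The adjoining range of 11 to 50 steps had more rises, 93.8%, and that of 51 to 100 steps fewer, 15.8%, so the share over all distances beyond 200 kb mixes both.

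Among neighbouring times, the changes by chromosome that passed lay between 3 and 12 h. From 3 to 12 h, limma gave 22 of 22 falls at 20 kb, against 1.14% lower among all combinations and 0.152% beyond 200 kb. It gave 123 of 198 rises from 40 to 200 kb, or 62.1%, against 53.5% higher among all and 53.2% beyond 200 kb. In the adjoining range of 11 to 50 steps 92.6% rose, and at 51 to 100 steps 21.7%. The scale, a chromosome's contacts between different bins, takes in neighbouring bins, so their fall lifts all other distances. No fit by chromosome was run on contacts 2 or more steps apart. In windows of 200 kb, described below, contacts at 40 to 200 kb over longer ones had a median log2 change of -0.001 from 3 to 12 h. There 46 of 13213 windows rose (0.348%) and 3 fell (0.0227%). With the replicate block, 157 of the 198 close combinations rose from 3 to 12 h and 22 of 22 fell at 20 kb. Shares beyond 200 kb were not counted with the block, so these numbers do not set close pairs apart. From 0.25 to 1 h and from 1 to 3 h no combination passed at any distance (0% of all in limma). In these steps 24 and 5 of the 220 close ones, and 267 and 76 of all 2200, had an unadjusted limma p under 0.05. With the block, no close combination passed in either step. Chromosomes at an unadjusted limma p under 0.05 then reached 15 of 22 from 0.25 to 1 h, at 200 kb, and 5 of 22 from 1 to 3 h, at 180 kb. Each of these contrasts rests on 2 libraries per time with the spread taken from all 4 times.

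**Figure D3:**
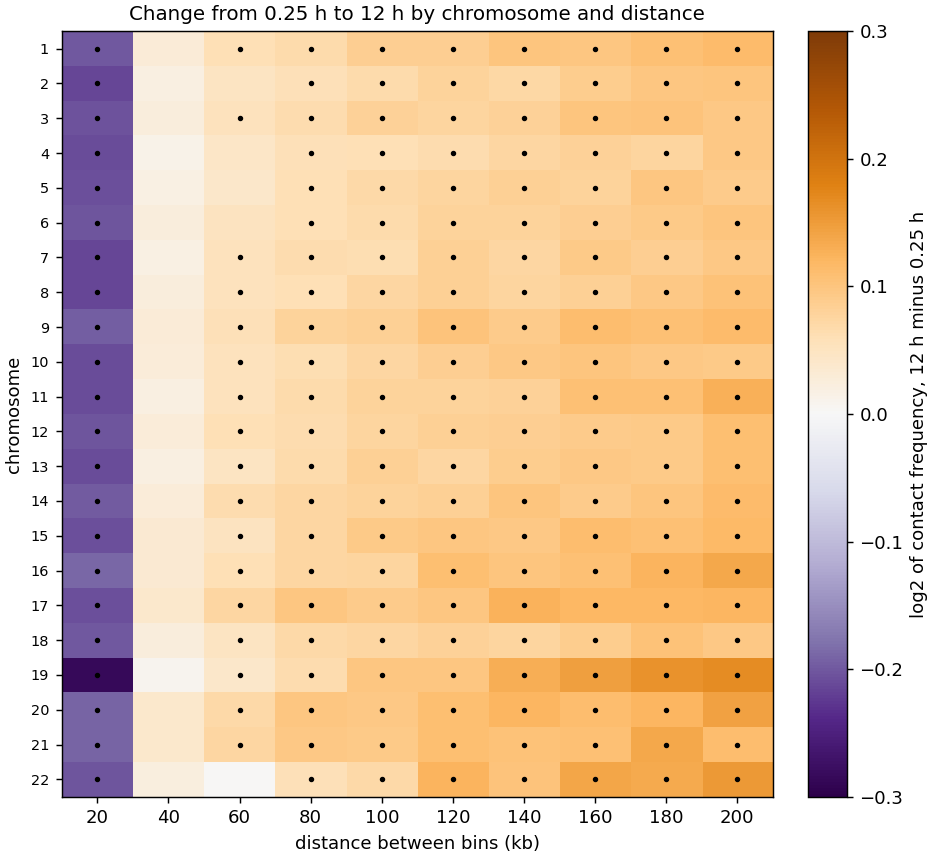
Change in log2 contact frequency from 0.25 to 12 h for each autosome (rows) and distance between bins in kb (columns), scaled within each chromosome. Purple is lower and orange higher at 12 h, and a dot marks a limma adjusted p of at most 0.05; all 22 chromosomes are lower at 20 kb, none has a dot at 40 kb, and 22 have one at each distance from 80 kb.

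Chromosomes differed in how much of their contact lay in the close range. At 0.25 h the close share of a chromosome's own contacts ran from 37.5% ± 0.566 (SD, n = 2) on chromosome 4 to 53.3% ± 0.519 on chromosome 19 and 55.6% ± 0.5 on chromosome 22. At 12 h chromosome 4 was at 36.2% ± 0.487, chromosome 19 at 50.7% ± 0.699 and chromosome 22 at 54.2% ± 0.923. The share followed the number of protein-coding genes per bin across the 22 chromosomes (Spearman's rho 0.83 at 0.25 h) and ran against the number of bins (rho -0.80). Chromosomes share the same libraries, shorter ones have fewer long distances to fill, and gene number and length go together, so this is a description.

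Mean close share was lower at 12 h than at 0.25 h on all 22 chromosomes, but no chromosome's trend passed (adjusted exact permutation p of 0.378 on 21 of them and 0.513 on chromosome 20, n = 8). At an unadjusted exact permutation p under 0.05 none passed in the same test, with or without the replicate block. The largest changes were on chromosome 19, with changes of -1.70 percentage points in replicate 1 and -3.42 in replicate 2, on chromosome 7, with -1.37 and -1.40, and on chromosome 22, with -1.05 and -1.64. The smallest were on chromosome 20, with -0.60 and -0.781, chromosome 21, with -0.765 and -0.728, and chromosome 16, with -0.782 and -0.971. The changes of both replicates on chromosome 19 lay farther apart than the mean changes of the other 21 chromosomes. With the deposited balanced signal in place of contacts, the trends of chromosomes 19 and 22 turned slightly positive (rho 0.05 each).

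With neighbouring bins left out of the close contacts but kept in the chromosome's total, the share rose on 22 of 22 chromosomes (adjusted exact permutation p of 0.00368 on 19 and 0.0103 on chromosomes 2, 4 and 9). The fall at 20 kb, which lowers that total, adds to these rises, and how much of them it makes was not tested. The rise was largest on chromosome 17, from 29.2% ± 0.214 (SD, n = 2) at 0.25 h to 31.0% ± 0.316 at 12 h. It was smallest on chromosome 4, from 22.03% ± 0.248 to 22.8% ± 0.221. In 200 kb windows, contacts at 40 to 200 kb over longer ones leave neighbouring bins out of both. There the median log2 change from 0.25 to 12 h was 0.09 on chromosome 17 and 0.03 on chromosome 4. Over all windows it was -0.001 from 3 to 12 h. The log2 change at 200 kb ran from 0.09 on chromosome 5 to 0.17 on chromosome 19. It followed gene number per bin (rho 0.86 across 22 chromosomes) and ran against the number of bins (rho -0.63). Its scale takes in neighbouring bins, whose fall differed between chromosomes, and their part in these relations was not tested. The change at 20 kb followed gene number less clearly, and rho and r had opposite signs (0.24 and -0.70). Chromosome 19 had the largest mean fall at 20 kb, 0.28 on the log2 scale. Its replicates differed, with a close share of 52.9% and 53.6% at 0.25 h and of 51.2% and 50.2% at 12 h. Its ratio of neighbouring bins over bins 40 kb apart went from 2.92 at 0.25 h to 2.39 at 12 h, and that of chromosome 22 from 2.60 to 2.22, both as means of 2 libraries.

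Close pairs that crossed a weakly connected point were contacted about 65% as often as pairs at the same distance that neither crossed nor ended at one, and this hardly varied between 0.25 and 3 h. Such points were the 5716 local minima of an insulation score, the log2 of the mean signal between the 200 kb before a bin and the 200 kb after it, called on both 12 h libraries averaged, with a median spacing of 380 kb. Crossing pairs made up 4.12% of pairs at 40 kb and 38.0% at 200 kb, and neighbouring bins cannot cross a minimum. Since the 12 h values defined the minima, the size of the difference is a description, and the 12 h libraries stayed out of the test.

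Averaged over 40 to 200 kb on the log scale, crossing pairs reached 64.0% and 65.3% of the frequency within at 0.25 h, 64.1% and 64.8% at 1 h, 64.3% and 65.2% at 3 h, and at 12 h 65.5% and 66.0%. Libraries of the 3 shorter times overlapped, and replicate 2 was above replicate 1 at each time. From 0.25 to 3 h there was no trend (rho 0.12, Pearson's r 0.10, exact permutation p = 0.844 and 0.856, n = 6, where the smallest p possible is 0.0222). The Spearman correlation turned to -0.32 without 0.25 h replicate 1 and to -0.48 on the balanced signal, neither of which passed. With minima called on 1 of the 12 h libraries and values read from libraries of the other replicate number, the ratio was 64.2% and 65.1% at 0.25 h, 64.4% and 64.6% at 1 h, 64.6% and 65.1% at 3 h, and at 12 h 66.2% and 66.3%. Both 12 h libraries were then above all others, and the trend over all 4 times did not pass by rank (rho 0.68, exact permutation p = 0.0825 over 8 libraries, or 0.156 with times permuted within replicate numbers). It passed by Pearson's r, 0.77 (exact permutation p = 0.0254), or 0.80 within replicate numbers (exact permutation p = 0.0347).

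The gap between both classes widened with distance. At 0.25 h pairs within were at 0.495 ± 0.00974 normalised contacts per pair at 40 kb (SD, n = 2) and crossing pairs at 0.370 ± 0.00358, a log2 ratio of -0.42. At 200 kb they were at 0.133 and 0.0795, a log2 ratio of -0.74. From 0.25 to 12 h, with minima of the other library, crossing pairs rose by 0.05 at 40 kb and 0.14 at 200 kb on the log2 scale, and pairs within by 0.03 and 0.10. Neighbouring bins with neither bin at a minimum changed by -0.20 on the log2 scale, and those with 1 bin at a minimum by -0.18, on the minima of both libraries.

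Deeper minima were crossed less often at all times. Their depth was read from the 12 h signal across them, so this order was built into the classes at 12 h and is a description. Over the 1905 minima with the lowest prominence, the depth of a minimum below its surroundings, crossing pairs reached 76.1% ± 0.272 (SD, n = 2) of the frequency within at 0.25 h and 77.1% ± 0.284 at 12 h. Over the middle 1905 the values were 65.7% ± 1.09 and 66.9% ± 0.277, and over the highest 1906 they were 52.0% ± 1.38 and 53.3% ± 0.522. From 0.25 to 3 h none of the 3 classes had a trend (rho 0.12 each, exact permutation p = 0.844 each, n = 6), and prominence was itself read from the 12 h libraries.

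**Figure D4:**
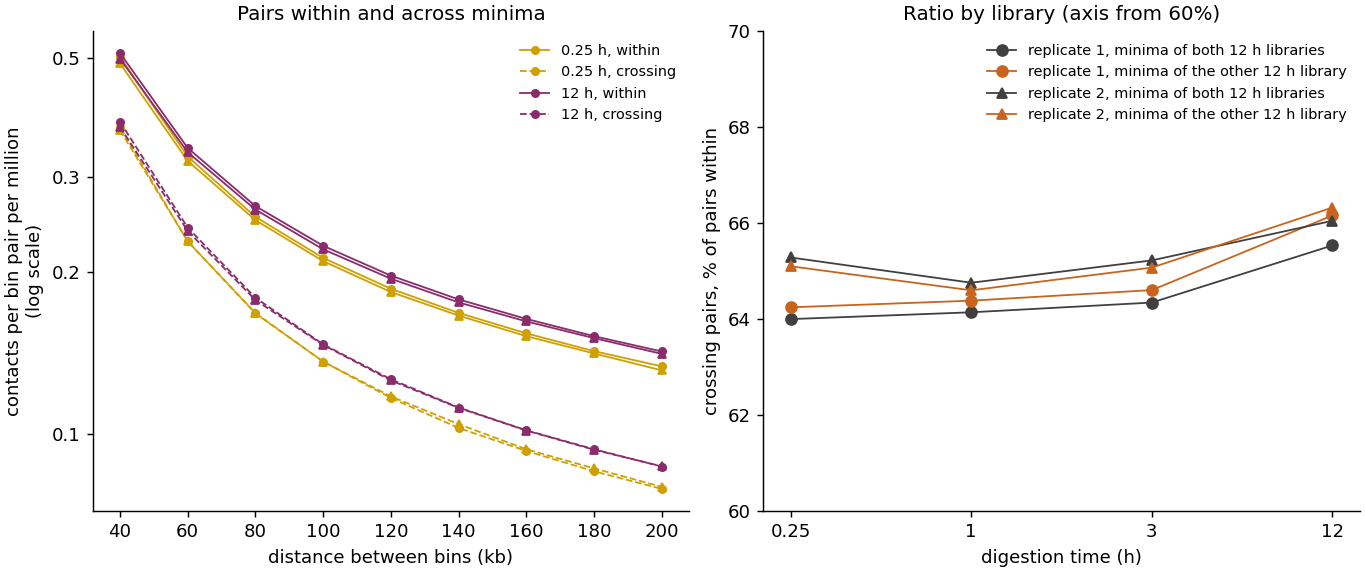
Left, normalised contacts per pair on a log axis against the distance between bins in kb, for pairs within (solid) and across (broken) insulation minima at 0.25 and 12 h, circles replicate 1 and triangles replicate 2. Right, crossing pairs as percent of pairs within against digestion time in each library, on an axis that starts at 60%; values run from 64.0% to 66.0% on the minima of both 12 h libraries (dark grey) and from 64.2% to 66.3% on those of the other library (orange).

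The lower ratio of neighbouring bins to longer close pairs was spread over the genome. In 13213 windows of 200 kb, contacts at 20 kb were set against contacts at 40 to 200 kb of the same bins, a ratio that takes out a window's coverage. From 0.25 to 12 h the ratio fell in 10575 windows, 80% of those tested, and rose in 10, or 0.0757%, at a limma adjusted p of 0.05. The median log2 change was -0.24, and 93.5% of windows were lower in both replicates. From 3 to 12 h it fell in 9774 windows, 74%, and rose in none (0% higher). From 0.25 to 1 h and from 1 to 3 h limma called 0 windows, 0% in either direction, while 1099 and 577 had an unadjusted p under 0.05. Windows of 1 Mb, of which 2637 of 2651 fell, had the same direction.

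Contacts at 40 to 200 kb rose against longer ones in fewer windows. From 0.25 to 12 h they rose in 1405 windows, 10.6%, and fell in 91, or 0.689%, by limma. Of the rises, 789 were in the fifth of windows with the fewest contacts, where 29.9% rose, and 34 in the fifth with the most, where 1.29% did; the change ran against mean contacts (rho -0.44 over 13213 windows), and its part in the calls was not tested. The median log2 change was 0.03 from 0.25 to 1 h, 0.01 from 1 to 3 h and 0.00 from 3 to 12 h, while 14, 3 and 46 windows rose past the threshold in these steps (0.106%, 0.0227% and 0.348%) and 3, 0 and 3 fell (0.0227%, 0% and 0.0227%), with 952, 374 and 1335 at an unadjusted limma p under 0.05. With the replicate block 2646 windows rose and 398 fell from 0.25 to 12 h, and 105 and 52 from 3 to 12 h. With the spread following contacts, an alternative chosen after seeing the data, 19 rose and 60 fell from 3 to 12 h, so the direction of that step depends on the fit.

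**Figure D5:**
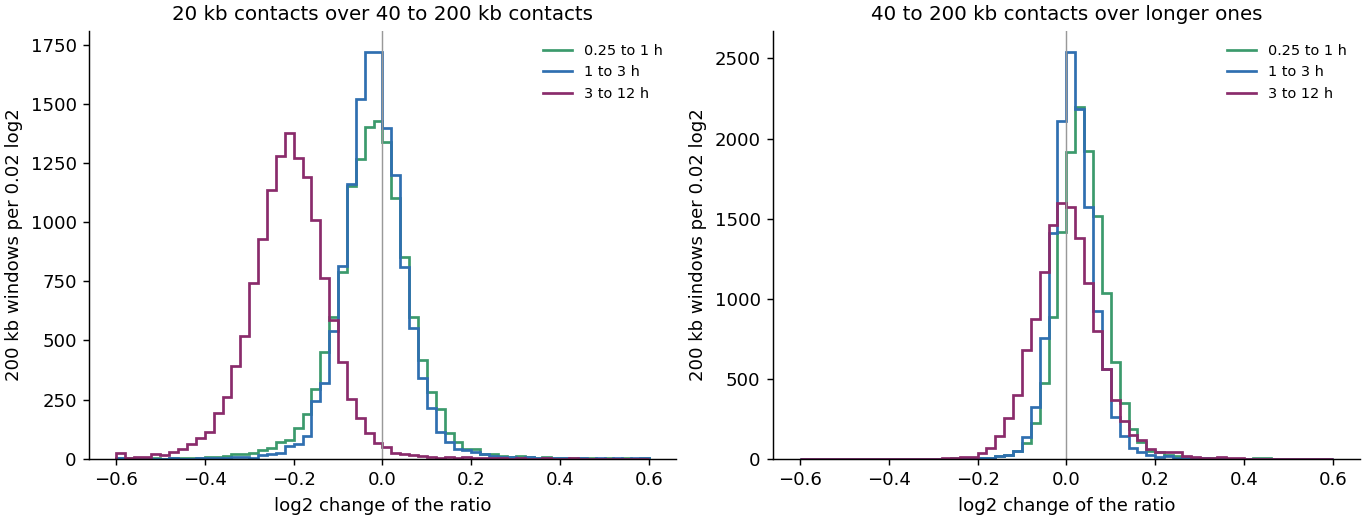
Numbers of 200 kb windows by the log2 change of a contact ratio in each step of digestion, with values beyond the axis counted in its end bins. Left, contacts at 20 kb over those at 40 to 200 kb, where the 3 to 12 h curve lies lower, at a median of -0.21; right, contacts at 40 to 200 kb over longer ones, where medians lie between 0.00 and 0.03.

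For all close contacts together, set against all other contacts of the same bins on the chromosome, 534 windows rose from 0.25 to 12 h (4.04%) and 1921 fell (14.5%) at a limma adjusted p of 0.05. The split depended on the libraries and on the neighbouring bins. With the replicate block 1014 rose and 4218 fell. Without 12 h replicate 2 the numbers were 310 and 177, without 12 h replicate 1 they were 182 and 1246, and without 0.25 h replicate 1 they were 660 and 777. On thinned libraries 275 rose and 1030 fell. From 0.25 to 1 h 21 windows rose and 2 fell (0.159% and 0.0151%), from 1 to 3 h 9 rose and none fell (0.0681% and 0%), and from 3 to 12 h 105 rose and 1994 fell (0.795% and 15.1%). With the replicate block the numbers were 8 and 1, 0 and 0 (limma, with 243 at an unadjusted p under 0.05 without the block), and 207 and 5780.

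Rises were more frequent among windows with few contacts and among windows near chromosome ends. In the fifth of windows with the fewest contacts 17.3% rose, 458 of the 534 rises, and 4.92% fell, and in the fifth with the most 0% rose and 30.5% fell. Within 2 Mb of a chromosome end 20.2% rose (76 windows) and 6.12% fell, against 2.73% (254 windows) and 16.1% of those over 20 Mb away. Windows near ends also had fewer close contacts, with a median of 2224 per library against 5203. The log2 change of the close ratio ran against mean contacts (rho -0.45 over 13213 windows), while that of neighbouring bins over 40 to 200 kb hardly did (rho -0.07). The part of contact number in these calls was not tested beyond a fit whose spread follows the contacts of a window, chosen after seeing the data, which gave 369 rises and 2244 falls.

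Of the windows that passed and whose 0.25 and 12 h libraries did not overlap, the 5 largest rises and 5 largest falls are described here by position on hg19, and the genes in them were not analysed here. The largest rise was on chromosome 1 from 1200001 to 1400000, where 5 of 10 bins were present. Close contacts made up 27.7% and 25.9% of its contacts at 0.25 h, 31.8% and 27.0% at 1 h, 31.6% and 30.6% at 3 h, and at 12 h 37.7% and 36.9%. Both 12 h libraries lay above all others, for a log2 change of the close ratio of 0.70 (limma adjusted p = 4.14e-05 with the prior spread following contacts). These shares rest on 97 to 815 close contacts per library. Here neighbouring bins rose too, by 0.76 against 40 to 200 kb contacts, against the direction of most windows. Its limma adjusted p of 0.0382 came from the main fit, whose prior spread does not follow contacts. The choice of the window used these same contacts, so this value is a description.

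The other 4 rises lay on chromosome 22 from 20200001 to 20400000 (0.62), chromosome 7 from 100200001 to 100400000 (0.58), chromosome 2 from 91600001 to 91800000 (0.57) and chromosome 1 from 143400001 to 143600000 (0.53), as log2 changes of the close ratio. They had 5 to 7 of 10 bins present and 205 to 1672 close contacts per library. In the same order, neighbouring bins changed by -0.24, 0.22, -0.16 and -0.35 against 40 to 200 kb contacts on the log2 scale. None of these 4 passed (lowest limma adjusted p = 0.0928). The second window on chromosome 1 kept its direction but missed the threshold in 5 of 14 alternatives, with a highest limma adjusted p of 0.22. In that window and the one on chromosome 2, the close share of 1 h replicate 1 lay above both 12 h libraries. It was 67.6% against 65.5% and 67.2% on chromosome 1, and 30.93% against 30.88% and 30.56% on chromosome 2. In the chromosome 7 window the share was 31.4% and 29.1% at 0.25 h, 32.8% and 32.1% at 1 h, 35.9% and 35.2% at 3 h, and at 12 h 40.1% and 38.5%. It was higher at each longer time in both replicates.

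Close contacts fell most on chromosome 19 from 22800001 to 23000000, where all 10 bins were present and close contacts numbered 5127 to 9490 per library. Close contacts made up 58.2% and 60% of its contacts at 0.25 h, 56.5% and 55.8% at 1 h, 54.0% and 53.1% at 3 h, and at 12 h 44.6% and 42.4%. The 4 times followed each other downward with no overlap, for a log2 change of -0.91 ± 0.0726 (SE). Neighbouring bins fell by 1.52 on the log2 scale against 40 to 200 kb contacts (limma adjusted p = 2.86e-05), and the latter changed by 0.09 against longer contacts (limma adjusted p = 0.289). The other falls lay on chromosome 8 from 145600001 to 145800000 (-0.57), chromosome 2 from 84200001 to 84400000 (-0.49), chromosome 3 from 151800001 to 152000000 (-0.45) and chromosome 4 from 13400001 to 13600000 (-0.45). All but the one on chromosome 8, with 5 bins and 268 to 893 close contacts, had all 10 bins present. The choice of windows used these contacts, and 80% of all windows fell in this ratio; in these 4, neighbouring bins fell against 40 to 200 kb contacts, with log2 changes of -0.40 to -1.15 (highest limma adjusted p = 0.000177). In the windows on chromosomes 3 and 4, contacts at 40 to 200 kb fell against longer ones too, with log2 changes of -0.30 and -0.17 (limma adjusted p = 0.00143 and 0.0384).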

How the data were processed

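The deposited files list bin pairs with a balanced contact signal, which the authors made with HiC-Pro 2.11.1 and Bowtie2 2.3.4.1 on hg19, per the submitters' processing notes; parameters, filters and the balancing step are not given in the sources used here. Balancing gives every bin the same total, so whole contacts were recovered from the signal as a count times a factor per bin; all values came within 0.01 of a whole number. Bin numbers were turned into hg19 positions because the highest, 154795, equals the number of 20 kb bins that the autosomes, both sex chromosomes and the mitochondrial genome make up. Gene numbers per chromosome came from RefSeq of a later assembly.

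The 8 second-run libraries were grouped by the time in their titles. Trends used exact two-sided permutation of times over the libraries. Chromosome strata and windows were fitted with limma 3.58.1 in R 4.3.3 (numpy 2.4.6 for the rest), windows having at least 5 bins, a mean of at least 100 close contacts and a pseudocount of 0.5 on the log2 scale. Calls used a Benjamini-Hochberg adjusted p of 0.05. Recovery and window tests were tested on simulated data. Same-numbered libraries deviated together (correlations of 0.453 to 0.716 for 6 pairs of libraries over 220 strata), so the replicate number was run as a block beside the main tests, which have none. Named windows were the 5 largest rises and falls among windows that passed and did not overlap, 1 per 2 Mb; named chromosomes were the 3 with the largest and the 3 with the smallest change. The pairs, lists and tests were chosen with earlier results of these data known. Alternatives were scaling, thinning, balanced signal, bin and window filters, the block and leaving out each library.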

Additional observations from a re-analysis of the deposited data

How the results depend on the processing

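Rises from 60 to 200 kb, the smaller ratio of neighbouring to 40 kb pairs and the lower contact of neighbouring bins relative to longer distances kept their direction in the alternatives run. Other results moved with the scaling, with single libraries or with the replicate block. Of the 10 distances, 8 rose; 5 did when scaled to contacts 2 or more steps apart, where the 40 kb trend was -0.10, and 9 with contacts inside bins or all contacts in the scale. Leaving out 1 library, 7 to 9 were called in either direction. The close share trend of -0.44 became 0.93 with contacts inside bins in the scale and 0.88 scaled to all contacts. It became 0.93 with neighbouring bins left out of the close contacts but not of the total, and ran from -0.64 to -0.17 leaving out 1 library. On balanced signal, chromosomes 19 and 22 had trends of 0.0488 each, and the crossing trend was -0.48 (-0.32 to 0.74 leaving out 1 library). Leaving out 1 library, the slope trend ran from 0.68 to 0.90, chromosome 20 from -0.64 to 0.0367, strata calls from 163 to 193, window calls from 487 to 2602 and calls on neighbouring bins from 7750 to 10619. The upper crossing was 1376 kb on balanced signal, 1512 kb thinned, 1593 kb without the bins of fewest contacts, 1234 kb scaled to 2 or more steps and 1416 kb scaled to contacts under 2 Mb; the lower was 47.1 and 39.0 kb under the last 2 scales. With contacts inside bins or all contacts in the scale, only replicate 1 had a lower crossing, between 20 and 40 kb, and neither replicate an upper one within 2 Mb, so no mean is given. Of the 22 chromosomes, 0 had a called close share trend, and 22 with neighbouring bins left out of the close contacts but not of the total. Window calls, 2455 in all, numbered 5232 with the replicate block, 1305 thinned, 478 in 1 Mb windows, 867 in single bins and 1496 without neighbouring bins; calls on neighbouring bins, 10585 in all, numbered 2637 and 17293 in 1 Mb windows and single bins, where 2651 and 124121 were tested. The replicate block changed the call of the 20 kb trend, of 3 ratios between distances and of the second named window on chromosome 1, and no other trend over libraries or named window; strata calls went from 193 to 207. Where no value above shows it, the cause was not tested. Each time had 2 libraries, and single pairs at 200 kb held a median of 3 to 12 contacts.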
